A study of Mus musculus with 16 samples.

Results

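The blood-brain barrier genes examined here are 10 named genes: the tight junction genes Cldn5, Ocln and Tjp1, the solute carriers Slc2a1, Slc7a5 and Mfsd2a, the efflux pumps Abcb1a and Abcg2, and the organic anion transporters Slco1a4 and Slco1c1. They were taken by symbol from the count tables, and all 10 of 10 had a row among 30389 genes. Their levels were read in cell barcodes with 200 to 7000 detected genes, per mouse and per cell class. The cells came from the neocortex of mice 17 months old, either THY-Tau22 or wild-type (WT) littermates, all perfused with saline, with 1 Drop-seq library per sample from a single hemisphere. THY-Tau22 mice were heterozygous for human 4-repeat tau carrying G272V and P301S. The line was bred to C57Bl6/J. The transgene is driven by the neuronal Thy1.2 promoter, so endothelial cells are not the cells in which the transgene is meant to act. Among the males the labels gave 4 WT and 4 THY-Tau22 mice, and among the females 3 WT and 5 THY-Tau22 mice.

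The blood-brain barrier is formed by the endothelial cells of brain capillaries. Their tight junctions seal the gap between neighbouring cells, so that nutrients must pass through carriers in the membrane, while pumps of the ABC family return lipid-soluble compounds to the blood. Pericytes and astrocyte endfeet surround these cells and help to maintain the barrier, and Wnt signalling to the endothelium keeps many of its genes on.

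The 16 tables held 1041675 to 2237505 UMIs each (a UMI, or unique molecular identifier, counts 1 captured transcript), and 28530 barcodes were kept. Of their barcodes, 2952 (98.4%) were the same in the table labelled WT male replicate 3 and in that labelled THY-Tau22 male replicate 4, and no other pair had more than 12 in common. These tables held a single library under both genotypes, and both were left out of all values below unless named. This left 14 libraries (males, 3 THY-Tau22 and 3 WT; females, 5 THY-Tau22 and 3 WT) with 24578 cells, 1121 to 2526 per library, at a median of 429 to 736.5 UMIs per cell. Cells were clustered without the 10 genes, and 3301 (13.4%) were endothelial-like, 128 to 378 per library, with 90107 to 361581 UMIs per library. All 15 of 15 endothelial markers were seen in them, at a summed 18935 CPM (UMIs of a gene per 1000000 UMIs of the same cells) against 285 CPM in microglia-like cells. Replicate numbers only name a mouse.

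Promoter sequences of 3 of the genes are shown first, because these genes differ in where they were found: Slco1a4 and Slco1c1 are related transporters that lie close together on chromosome 6, yet only the latter was frequent in astrocyte-like cells, and Cldn5 is the main claudin of this endothelium. They were taken from RefSeq on GRCm38.p6 (the patch release of the mm10 build that the labels name), 5′ to 3′ on the strand of the gene, and end where the annotated gene begins. Capitals mark matches to any of 3 motifs, ACAATG (SOX factors), CCGGAA (ETS factors) and CTTTGA (LEF/TCF, the factors of Wnt signalling), on either strand, none of which overlapped another.
Slco1a4, chr6:141856285-141856470, minus strand: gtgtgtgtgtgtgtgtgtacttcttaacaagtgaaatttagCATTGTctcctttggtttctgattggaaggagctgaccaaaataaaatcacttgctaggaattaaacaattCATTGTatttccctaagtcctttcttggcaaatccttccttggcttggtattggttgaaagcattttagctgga
Slco1c1, chr6:141524104-141524353, plus strand: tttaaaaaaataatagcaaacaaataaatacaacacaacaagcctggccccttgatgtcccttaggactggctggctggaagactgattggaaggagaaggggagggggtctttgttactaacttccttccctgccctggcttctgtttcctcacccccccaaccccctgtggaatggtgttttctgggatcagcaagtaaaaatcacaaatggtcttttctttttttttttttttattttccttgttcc
Cldn5, chr16:18776597-18776846, plus strand: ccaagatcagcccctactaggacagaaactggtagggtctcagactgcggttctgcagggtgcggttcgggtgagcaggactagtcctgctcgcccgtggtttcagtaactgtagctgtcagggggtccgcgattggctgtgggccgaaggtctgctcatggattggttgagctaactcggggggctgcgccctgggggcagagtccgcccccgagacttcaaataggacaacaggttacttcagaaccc
Slco1a4 held 2 SOX matches, both on the opposite strand. The printed windows of Slco1c1 and Cldn5 held none of these letters. Among the 9 members with a promoter entry, Abcb1a held 2 LEF/TCF matches, Mfsd2a held 1, Abcg2 held 1 SOX match and Ocln held 1 ETS match. These 9 members had 12 entries, since Abcg2 and Ocln had more than 1, and only 1 entry of each of these held its match. Of 32851 RefSeq promoters, 10.7% held the SOX letters, 12.0% the ETS letters and 13.8% the LEF/TCF letters, and a match is a description of the sequence only.

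Cldn5, Ocln and Tjp1 make the junction: Cldn5 and Ocln are membrane proteins of the seal, and Tjp1 (ZO-1) ties such proteins to the actin skeleton in many cell types. Cldn5 (chromosome 16, 18776847 to 18778262) lay at 2294 ± 736 CPM in endothelial-like cells (mean ± SD, n = 14 libraries), from 1399 through a median of 2305 to 3693. It was at 1385 ± 488 CPM in mural-like cells and at 17.5 ± 12.8 CPM in microglia-like cells. The mural-like class was named from markers of pericytes and smooth muscle, but 760 of its 892 cells also held a UMI of an endothelial marker. Endothelial-like cells exceeded mural-like cells in 14 of 14 libraries, by 0.74 on the log2(CPM + 10) scale (two-sided exact sign-flip permutation test, adjusted p = 0.000203 over the 10 genes). Ocln (chromosome 13, 100496504 to 100552718) was at 98.5 ± 42.8 CPM, from 14.5 to 193, on 238 UMIs in all. Its excess over mural-like cells, 0.49 in 12 of 14 libraries, did not pass the test (exact permutation p = 0.124). Tjp1 (chromosome 7, 65296165 to 65527850) was the least restricted of the 10 by its share of UMIs: it was at 499 ± 87.5 CPM in endothelial-like cells, and at 134 ± 37.8 in microglia-like, 117 ± 22.5 in astrocyte-like and 374 ± 111 in mural-like cells. Endothelial-like cells held 36.9% of Tjp1 UMIs, against 72.9% of Cldn5 and 67.6% of Ocln UMIs.

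Slc2a1 (GLUT1) brings glucose across the barrier, Slc7a5 (LAT1) large neutral amino acids, and Mfsd2a lipids that carry omega-3 fatty acids. Slc2a1 (chromosome 4, 119108745 to 119137330) was at 662 ± 202 CPM in endothelial-like cells, between 398 and 1092, and exceeded mural-like cells by 0.40 in 13 of 14 libraries (exact sign-flip permutation test, adjusted p = 0.000872). Slc7a5 (chromosome 8, 121881146 to 121907686) was at 173 ± 79.8 CPM, the widest relative spread of the carriers, between 75.7 and 344.5. It exceeded mural-like cells by 1.18 in 12 of 14 libraries (adjusted p = 0.00149, exact permutation test). Mfsd2a (chromosome 4, 122946850 to 122961194) was at 211 ± 62.4 CPM. Its next class by median was astrocyte-like, at 109 ± 38.8, while by mean oligodendrocyte precursor-like cells came next, at 119 ± 66.0. The gap of 0.91 to astrocyte-like cells was seen in 14 of 14 libraries (adjusted p = 0.000203, exact permutation test).

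Abcb1a (P-glycoprotein) and Abcg2 (BCRP) pump drugs and other compounds back into the blood. Abcb1a (chromosome 5, 8567091 to 8748575) varied least between libraries relative to its mean, at 3032 ± 268 CPM in endothelial-like cells, and 77.2% of these cells held a UMI of it. Counts of Abcb1a may include reads of its related neighbour Abcb1b, which had a row of its own. Abcg2 (chromosome 6, 58584491 to 58692451) was at 667 ± 171 CPM. Fibroblast-like cells, with at least 10 cells in 8 libraries, were at 473 ± 157 CPM of Abcg2, above mural-like cells at 324 ± 107, and were not tested against endothelial-like cells. Abcb1a exceeded its level in mural-like cells by 0.74 and Abcg2 by 1.05, each in 14 of 14 libraries (adjusted p = 0.000203 for each, exact sign-flip permutation test). Slco1a4 (chromosome 6, 141805438 to 141856284), which carries bile acids, steroid conjugates and drugs, was at 2059 ± 345 CPM and exceeded mural-like cells by 0.99. Slco1c1 (chromosome 6, 141524354 to 141570177), which carries thyroxine, was at 2260 ± 263 CPM and exceeded them by 0.70, again each in 14 of 14 libraries (adjusted p = 0.000203 for each, exact permutation test).

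In all, 9 of 10 genes passed this test of endothelial-like cells against the next class, which was taken by median CPM among the named classes that had at least 10 cells in at least 10 libraries. For 6 of them the unadjusted p of 0.000122 was the smallest that 14 libraries can give. The ranges over libraries of the first and the next class still overlapped for each of the 10 genes, since the test pairs the classes within a library. The classes were built from other genes of the same cells, so the test shows how steady the gap was between libraries, not that the classes are distinct. UMIs come from the 3′ end and are not scaled to length, so levels of different genes are not ranked here. How the count tables used strand was not given in the sources used here, and Slc2a1, Tjp1, Abcb1a and Slc7a5 overlap other annotated genes.

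**Figure D1:**
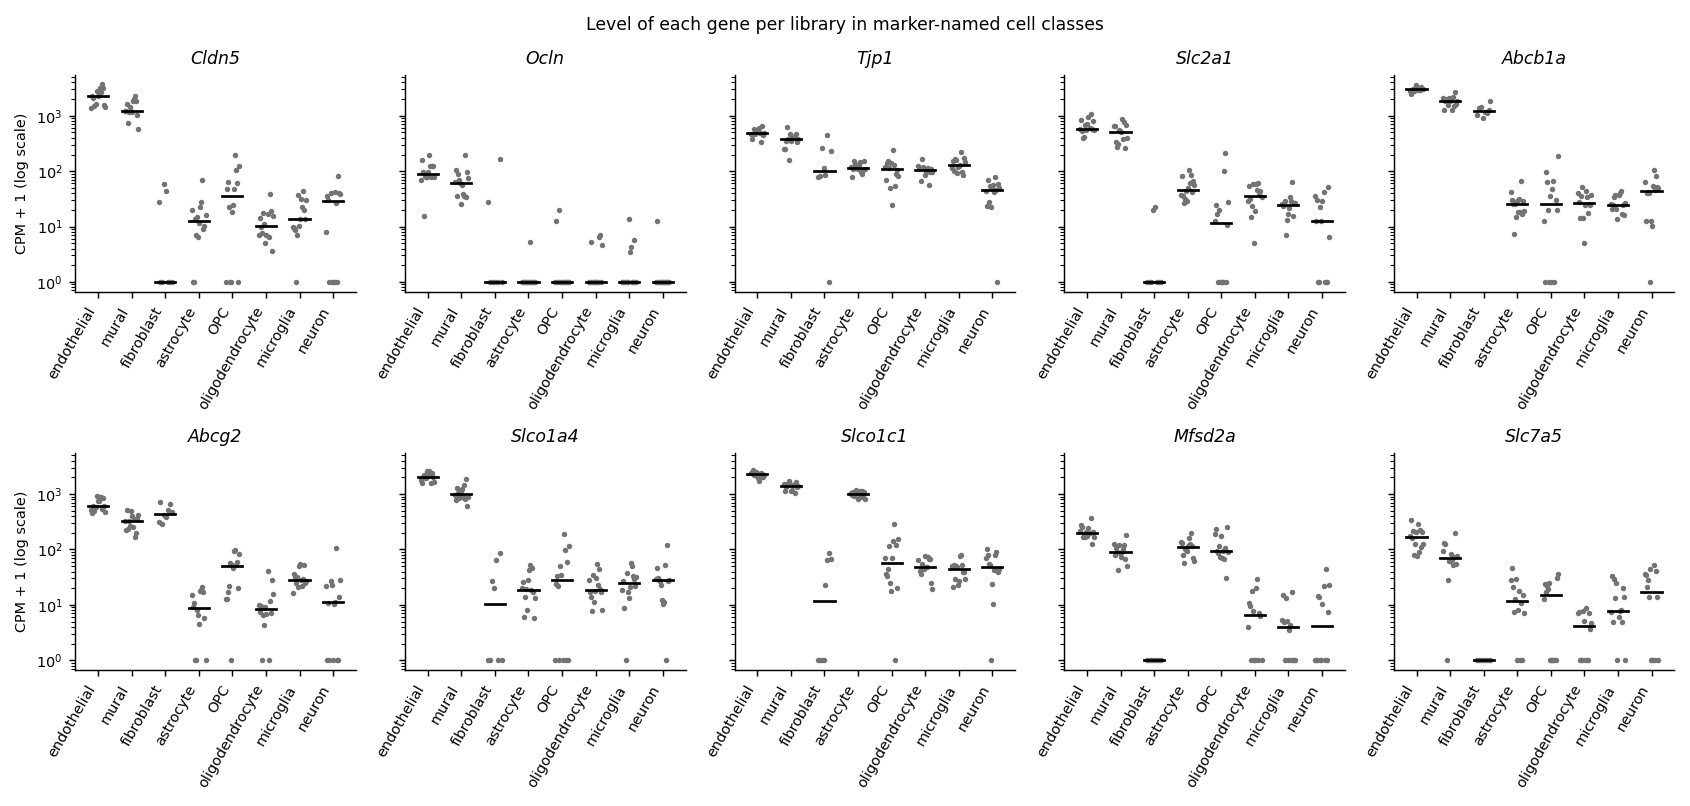
Level of each of the 10 genes by cell class in the 14 libraries. Each point is 1 library with at least 10 cells of the class, the vertical axis is CPM + 1 on a log scale and lines mark medians (OPC, oligodendrocyte precursor-like). Endothelial-like cells are highest for each gene, mural-like cells are next by median for 8 of 10 (fibroblast-like for Abcg2, in 8 libraries, and astrocyte-like for Mfsd2a), and Slco1c1 is the member with a high level in astrocyte-like cells (817 to 1167 CPM).

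The 10 genes were found together in single cells. Of the endothelial-like cells, 98.7% held a UMI of at least 1 of them and 77.5% of at least 3, with a median of 4 and at most 10. Thinned to 300 UMIs per cell, the shares were 95.6% and 49.2%. In thinned microglia-like cells 8.26% held at least 1 (15.2% unthinned, at a median of 505 UMIs against 533 in endothelial-like cells). Other classes lay between: of thinned mural-like cells 71.9% held at least 1 and 21.0% at least 3. Of thinned astrocyte-like cells 32.5% held at least 1 and 0.171% at least 3. Of the UMIs of the 10 genes in microglia-like cells, 42.5% were of the junction gene Tjp1. Per gene, the share of endothelial-like cells with a UMI ran from 6.54% for Ocln (2.63% thinned) through 11.1% for Slc7a5, 12.8% for Mfsd2a, 25.1% for Tjp1, 29.6% for Abcg2 and 32.5% for Slc2a1 to 62.2% for Slco1a4, 64.1% for Cldn5, 68.1% for Slco1c1 and 77.2% for Abcb1a. These 10 genes gave 46325 UMIs over all cells, of which 61.7% lay in endothelial-like, 15.7% in mural-like, 9.42% in astrocyte-like and 5.40% in unnamed cells. Of the 3 unnamed clusters where they were high, the largest (722 cells) had 2395 CPM of them beside 3296 CPM of endothelial markers.

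The second place of mural-like cells went with endothelial markers in the same cells. The 15 endothelial markers summed to 12871 CPM in mural-like cells, 68.0% of their level in endothelial-like cells, and the 10 genes reached 42.7% (Slc7a5) to 80.9% (Slc2a1) of theirs. The 9 mural markers summed to 8885 CPM in mural-like cells and to 1115 CPM in endothelial-like cells. In 132 of the 892 mural-like cells no endothelial marker was counted, at a median of 451.5 UMIs per cell. In those cells the 10 genes summed to 605 CPM, against 7388 CPM in the other 760 mural-like cells (median 841.5 UMIs), 11684 in endothelial-like and 312 in microglia-like cells. Slco1a4 was at 1079 CPM in the 760 cells and at 0 UMIs in the 132, at least 24.98-fold lower (3 UMIs as the floor over the group). Abcb1a was at 1911 and 14.4 CPM (1 UMI) in the same order, Tjp1 at 368 and 230, and Cldn5 at 1386 and 115. Scrublet marked 4.15% of mural-like cells as doublets, and the part of attached endothelial cells in the mural-like levels was not tested further. These cells were set apart by their counts after the data were seen, so the values are a description.

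**Figure D2:**
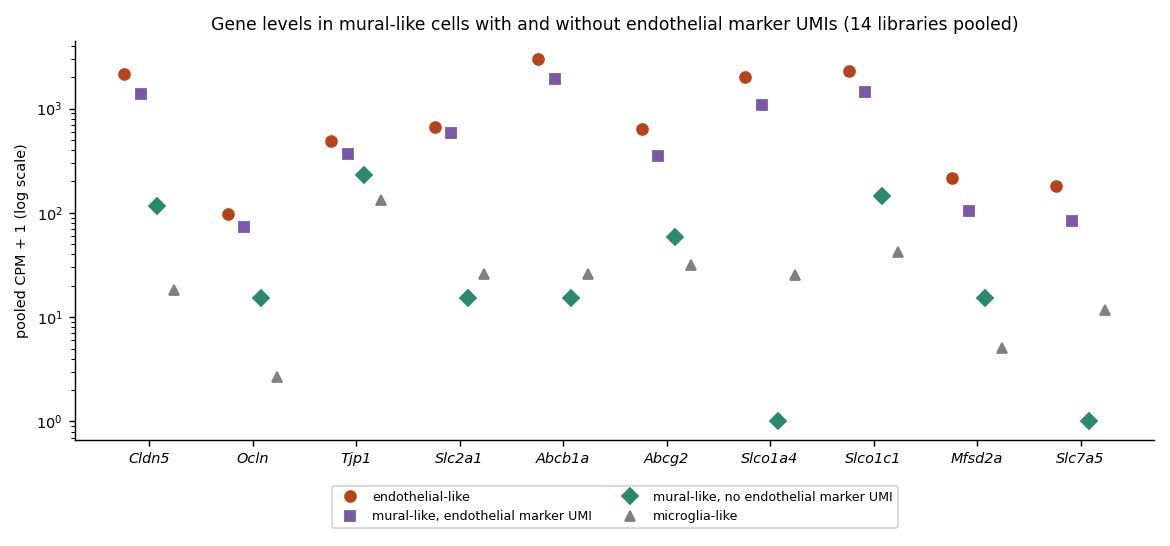
Pooled CPM of each gene in endothelial-like cells, in mural-like cells with a UMI of an endothelial marker (760 cells) and in those without (132 cells), and in microglia-like cells. The vertical axis is CPM + 1 on a log scale. Without an endothelial marker, Slco1a4 and Slc7a5 are at 0 UMIs, and Tjp1 differs least from the other mural-like cells (230 and 368 CPM).

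Outside the vessels, Slco1c1 and Mfsd2a were found in glia. Slco1c1 was at 1003 ± 116 CPM in astrocyte-like cells (n = 14, 817 to 1167), below mural-like cells at 1393 ± 211 with overlapping ranges, and far above microglia-like cells at 43.1 ± 18.3. A Slco1c1 UMI was seen in 42.2% of astrocyte-like cells (24.8% thinned, median 556 UMIs) and in 2.12% of microglia-like cells (0.955% thinned). Astrocyte-like cells held 28.5% of all Slco1c1 UMIs, whereas its neighbour Slco1a4 was at 21.6 ± 14.9 CPM there, within the range of microglia-like cells (25.4 ± 15.4). Mfsd2a was at 109 CPM in astrocyte-like cells (57.0 to 199) and at 119 ± 66.0 in oligodendrocyte precursor-like cells (29.6 to 251), whose ranges overlapped, against 4.32 ± 5.63 in microglia-like cells. Cldn5, at 15.6 ± 17.3 CPM in astrocyte-like cells, did not stand above microglia-like cells.

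A small class held both pumps with few UMIs of most other members. Fibroblast-like cells (148 cells in 14 libraries, led by Prg4, Nov, Rspo3 and Mgp, at least 10 cells in 8 libraries) had Abcb1a at 1276 ± 297 CPM (n = 8, 910 to 1872) and Abcg2 at 473 ± 157 (290 to 726). A UMI of Abcb1a was seen in 62.8% of them (27.9% thinned) and of Abcg2 in 37.2% (15.6% thinned), at a median of 979 UMIs. Cldn5 was at 15.8 ± 23.2 CPM there, Slco1a4 at 24.2 ± 32.8, Slco1c1 at 29.4 ± 35.9 and Tjp1 at 162 ± 143. Mfsd2a and Slc7a5 were seen in 0 of 148 cells, which allows a share of cells with a UMI of up to 2.03%. The endothelial markers summed to 496 CPM in these cells, against 18935 in endothelial-like cells.

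Within endothelial-like cells, those with a UMI of any of 7 arterial markers (654 cells) were set against the 2647 without. Of the 10 genes, 5 passed the paired test over the 14 libraries, all of them lower in the arterial cells. Abcg2 was at 515 ± 177 CPM with and 718 ± 210 without, a difference of -0.41 on the log2(CPM + 100) scale that was negative in 11 of 14 libraries (exact sign-flip permutation test, adjusted p = 0.0297). Slc7a5 differed by -0.41 (10 of 14, adjusted p = 0.0339, exact permutation test), Slco1a4 by -0.21 (13 of 14, adjusted p = 0.0297), Tjp1 by -0.21 (11 of 14, adjusted p = 0.0408) and Abcb1a by -0.12 (10 of 14, adjusted p = 0.0297). Slc2a1 and Slco1c1 were higher with the markers by 0.11 and 0.07 and Cldn5, Ocln and Mfsd2a lower by -0.05, -0.05 and -0.20, without passing (adjusted p of 0.293 to 0.655, exact permutation test). The cells with an arterial UMI were deeper, at a median of 702.5 against 510 UMIs, and the part of depth in these differences was not tested. The calls were narrow: each of the 5 ended without THY-Tau22 male replicate 2 (adjusted p = 0.0542 for each, exact permutation test) and without THY-Tau22 female replicate 5 (0.0578 for Abcb1a, Abcg2 and Slco1a4, 0.0654 for Tjp1 and Slc7a5). Slc7a5 ended also when WT males 2 or 4 or THY-Tau22 female 4 were left out (up to 0.0677), and Tjp1 when WT males 1 or 4, THY-Tau22 male 3, THY-Tau22 female 4 or any of the WT females were (up to 0.0815).

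The genes most like each member were looked for over 111 sums of a library and a named class, among 9336 genes. This is a description, since the sums of a library share their depth and preparation, and Adgrf5, Emcn, Ly6c1, Egfl7, Itm2a and Tek are among the markers that named the endothelial-like class. Slco1a4 followed Adgrf5 (Pearson r = 0.94), Emcn and Ly6c1, and Cldn5 followed Tm4sf1 (0.94), the transporter Slc22a8 and Igfbp7. For Abcb1a the nearest were Sox17 (0.93), Nostrin and Slc22a8, for Ocln Mecom (0.92), Icam2 and Gata2, for Abcg2 Foxq1 (0.89), Cyyr1 and Itm2a, for Slc2a1 Egfl7 (0.88), Sox17 and Id1, and for Slc7a5 Fmo2 (0.84), Itm2a and Tek. Slco1c1 (Ccdc141 at 0.89, Id3 and Tgfb2), Mfsd2a (Myo10 at 0.87, Slc38a3 and Timp3) and Tjp1 (Eogt at 0.78, Igf1r and Ginm1) had other neighbours. Among the members themselves, Abcb1a and Slco1a4 were most alike (0.934), just above Cldn5 and Slco1a4 (0.931), and Abcb1a and Mfsd2a least (0.54).

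The study set THY-Tau22 against WT within each sex. In endothelial-like cells no member passed the threshold (edgeR adjusted p under 0.05, with a log2 fold change of 0.5 or more in size) in males, in females, averaged over the sexes or for the sex by genotype interaction, and neither did any of the 3371 genes tested (0 called, 0% in each of the 4 contrasts). DESeq2 called 0 members, and 2 genes in males and 1 for the interaction. At an unadjusted p under 0.05 there was 1 of 10 members in males, where 14.7% of all genes lay, 0 in females (2.61% of all genes), 0 over both sexes (4.51%) and 1 for the interaction (13.0%), a share near the background. The median log2 fold change of the 10 was 0.05 in males and 0.03 in females, beside 0.00 and -0.01 over all genes tested. Over the 10 genes the 95% intervals reached from -0.86 to 1.61 in males and from -0.82 to 1.16 in females, from the lowest to the highest end.

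Cldn5 was the member at an unadjusted p under 0.05. In WT males it was at 1399, 2063 and 1477 CPM (replicates 1, 2 and 4), and in THY-Tau22 males at 2797, 2325 and 3155 (replicates 1 to 3). All 3 THY-Tau22 males lay above the 3 WT males. In WT females it was at 2726, 3693 and 1439 CPM and in THY-Tau22 females at 2286, 1656, 2363, 3152 and 1583, and these groups overlapped. The edgeR log2 fold change was 0.59 ± 0.28 in males (SE, 95% interval 0.02 to 1.17, adjusted p = 0.33) and -0.21 ± 0.25 in females (-0.73 to 0.30, adjusted p = 1.00). The difference between the sexes was 0.81 ± 0.38 (95% interval 0.04 to 1.58, edgeR adjusted p = 0.372). The library found under both genotypes gave 2240 CPM in the table labelled WT and 1887 in that labelled THY-Tau22. The first value lies between the groups and the second within the range of the WT males.

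Abcg2 also separated the males, at 520, 612 and 485 CPM in WT and 911, 755 and 885 in THY-Tau22 mice. Its log2 fold change of 0.50 ± 0.26 did not pass (95% interval -0.03 to 1.03, edgeR adjusted p = 0.368), and in females it was 0.06 ± 0.24. These 2 of 10 genes were all the members whose CPM did not overlap between the male groups, both higher in THY-Tau22 males, where 18.5% of all genes were higher and 6.44% lower without overlap. In females it was 0 of 10, where 1.19% were higher and 0.771% lower. Ocln had the largest fitted value in males, 0.72 ± 0.43, on levels of 69.1, 94.6 and 14.5 CPM in WT and 77.1, 77.9 and 193 in THY-Tau22 males. Without WT male replicate 4 it was 0.17. Slc2a1 was at 0.37 ± 0.30 and Slco1c1 at -0.28 ± 0.24 in males, and Tjp1, Slco1a4, Abcb1a, Slc7a5 and Mfsd2a lay between -0.20 and 0.08. In females the values ran from -0.24 (Mfsd2a) to 0.38 (Ocln). The signs of values near 0 turned with the settings: in males those of Tjp1, Abcb1a and Slc7a5, and in females those of Abcb1a, Abcg2 and Slco1c1.

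**Figure D3:**
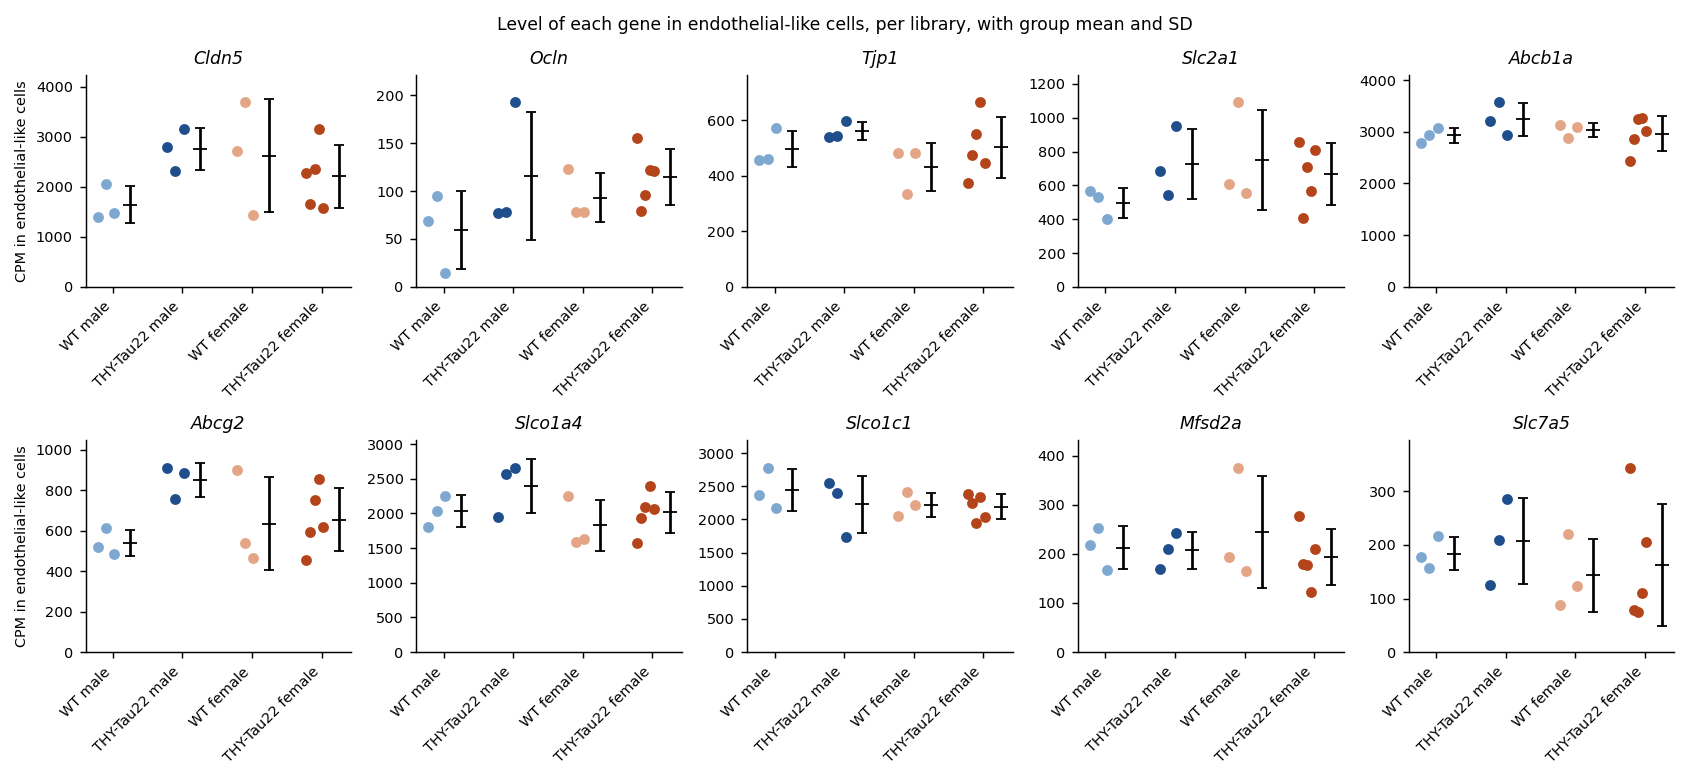
CPM of each gene in endothelial-like cells by sex and genotype (3 libraries per group, 5 for THY-Tau22 females). Coloured points are libraries, and black marks with error bars are group means with SD. The male groups do not overlap for Cldn5 and Abcg2, the female groups overlap for each gene.

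**Figure D4:**
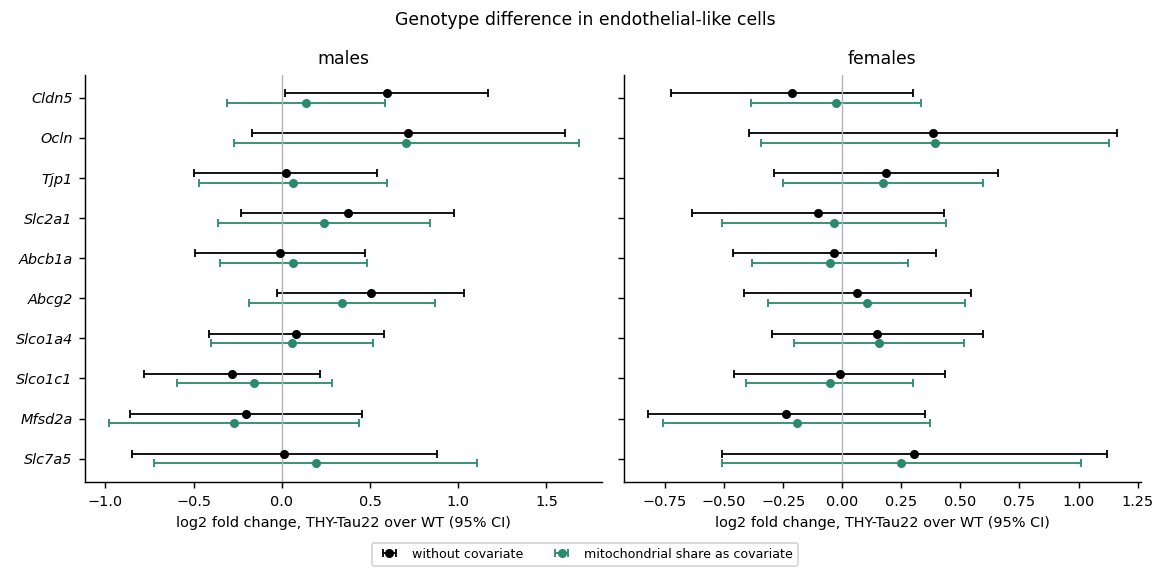
Log2 fold change of THY-Tau22 against WT in endothelial-like cells by gene, in males and in females, from edgeR, with 95% intervals, as fitted with no covariate and with the share of mitochondrial RNA as a covariate. In males only the Cldn5 interval without the covariate (0.02 to 1.17) leaves out 0.

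The level of Cldn5 moved with the share of mitochondrial RNA in the same cells. That share, most of it from the mitochondrial ribosomal RNA genes, was 22.9%, 19.1% and 20.5% of UMIs in WT males and 15.0%, 14.2% and 10.1% in THY-Tau22 males, with no overlap, and 6.18% to 22.0% in WT and 7.96% to 20.6% in THY-Tau22 females. Over the 14 libraries, Cldn5, scaled to non-mitochondrial UMIs, fell as the share rose, with Pearson r = -0.90 (permutation p = 2e-05, adjusted p = 0.0002 over the 10 genes) and Spearman rho = -0.88 (permutation p = 5e-05, adjusted p = 0.0005). Without the 2 libraries farthest from the median share r was -0.86, and within groups, after each group mean was taken off, it was -0.86. Of 2051 genes compared, 13 (0.634%) had an r as low. The relation was looked for after the data were seen. With the share as a covariate, the Cldn5 log2 fold change in males was 0.14 ± 0.22 (95% interval -0.31 to 0.59) and the difference between the sexes 0.16 ± 0.30. With mitochondrial genes left out of the counts instead, the male value stayed at 0.60. Since the shares of the male groups do not overlap, genotype and this share cannot be told apart in males. Slco1c1 leaned the other way (r = 0.60, rho = 0.65, adjusted permutation p = 0.107 and 0.0671). The other 8 members did not pass, with r from -0.43 (Abcg2) to 0.36 (Abcb1a). Without the same 2 libraries, r was -0.82 for Abcg2, -0.49 for Slco1a4 (0.034 with them) and 0.71 for Slco1c1. The share of mitochondrial mRNA alone, without ribosomal RNA, went the other way in males, also with no overlap: its median per endothelial-like cell was 0.714% to 1.21% in THY-Tau22 and 0.265% to 0.538% in WT males. In females it was 0.551% to 0.794% in THY-Tau22 and 0.344% to 1.28% in WT mice. Its part in the Cldn5 result was not tested.

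**Figure D5:**
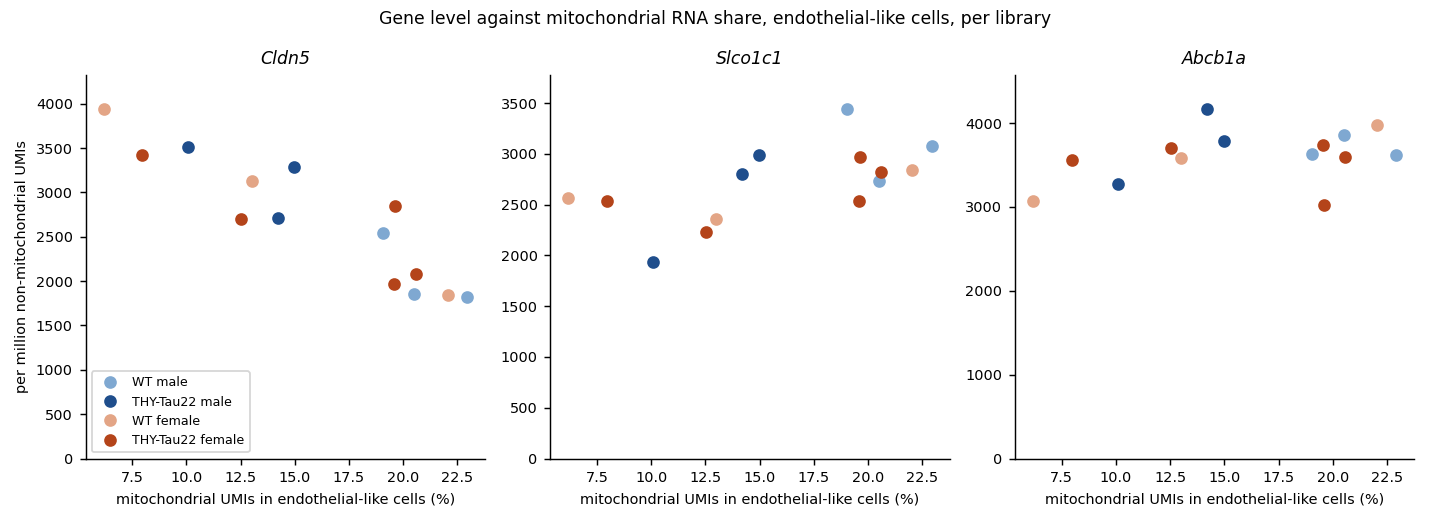
Level of Cldn5, Slco1c1 and Abcb1a in endothelial-like cells (CPM of non-mitochondrial UMIs) against the share of UMIs from mitochondrial genes (percent), 1 point per library, with groups by colour. Cldn5 falls along the axis (r = -0.90 over 14 libraries) and the WT males lie at 19.1% to 22.9%.

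Markers of other cell types were counted in the endothelial-like cells. Mural markers summed to 794 to 1384 CPM and the 15 endothelial markers to 17163 to 20703 CPM per library, and the genotypes overlapped in both sexes. Fibroblast markers did not overlap in males, at 0 to 5.53 CPM in WT and 5.99 to 14.3 CPM in THY-Tau22 mice (4 of 5 markers seen). Choroid plexus markers reached 4912 CPM in 1 WT male library, and erythrocyte markers 12174 CPM in 1 THY-Tau22 female library. T or NK cell markers were at 0 UMIs in the WT males and 7.01 to 18.0 CPM in THY-Tau22 males (4 of 9 markers seen). The male libraries held 138140 to 361581 UMIs in endothelial-like cells, so these fibroblast and T or NK values rest on very few UMIs. Such a separation is not read as a difference between the genotypes. The part of these other cell types in the results was not tested.

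Of the 62 other barrier genes in a wider list (junctions, carriers, pumps, receptors and Wnt signalling), 43 were tested in endothelial-like cells and 0 were called in any contrast. At an unadjusted p under 0.05, 4 were higher and 2 lower in males (14.7% of all genes passed there) and 0 in females (2.61%). When the sexes were averaged 1 was higher (4.51% of all genes), and for the interaction 2 were higher and 1 lower (13.0%). The smallest p values in males were of Slc9a3r2, a scaffold protein of membrane transporters (0.80 ± 0.28, edgeR adjusted p = 0.261), and Foxf2, a transcription factor (1.21 ± 0.44, adjusted p = 0.272). In females they were of Slc38a5, a glutamine transporter (0.81 ± 0.50), and Slc39a8, a zinc and manganese transporter (0.58 ± 0.37), with edgeR adjusted p = 1.00 for both.

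In astrocyte-like cells 4 members could be tested and none was called or reached an unadjusted p under 0.05 in any contrast, among 4148 genes (0% called in males, females and the average, 0.0241% for the interaction). Slco1c1 differed there by -0.22 ± 0.24 in males and 0.14 ± 0.21 in females, and Mfsd2a by 0.04 ± 0.37 and -0.17 ± 0.33. Slc2a1 was at 0.60 ± 0.48 in males and -0.20 ± 0.39 in females, and Tjp1 at -0.28 ± 0.32 and 0.30 ± 0.30.

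Summed over all cells of a mouse, again 0 of 10 members and 0 of 11643 genes (0% in each contrast) were called. In such sums, fewer cells of a type and less RNA per cell cannot be told apart. Slco1c1 was at 767, 724 and 662 CPM in WT and 636, 585.9 and 509 in THY-Tau22 males, with a log2 fold change of -0.49 ± 0.21 in males (edgeR adjusted p = 0.286), -0.10 ± 0.18 in females and -0.30 ± 0.14 over both (adjusted p = 0.946). It was the only member at an unadjusted p under 0.05, where 15.4% of all genes lay in males (1.74% in females, 4.22% when averaged, 12.7% for the interaction). The CPM of male groups did not overlap for 3 of 10 members: Cldn5 and Abcg2 were higher in THY-Tau22 males (22.4% of all genes were) and Slco1c1 lower (6.68%). For Cldn5 and Abcg2 the edgeR log2 fold changes in males did not exceed their SE, at 0.23 ± 0.28 and 0.16 ± 0.25. As a share of all cells, endothelial-like cells made up 11.5% ± 2.02 in male THY-Tau22 and 14.7% ± 0.807 in male WT mice (SD over 3 mice each), at the lowest p of 0.10 that the two-sided exact permutation test can give here. In females it was 12.6% ± 2.03 (n = 5) against 15.2% ± 1.69 (n = 3) (exact permutation p = 0.107, smallest possible 0.0179). This p was 0.0286 (exact permutation test) without THY-Tau22 female replicate 1, at a difference of -3.34 percentage points.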

How the data were processed

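The authors dissociated fresh neocortex, made Drop-seq libraries, sequenced them (NextSeq 500) and used the standard Drop-seq pipeline, with mm10 per the labels; its version and the annotation were not given in the sources used here. The deposited values are UMI counts per gene and barcode, not normalized. Each sample was taken as 1 mouse. In the titles, WT male replicate 1 has the animal number of THY-Tau22 female replicate 1, which the sources used here do not explain; the labels' groups were kept. The members and gene lists were chosen with earlier results of these data known. All 10 members are named; of the wider list, genes called and the 2 smallest p per sex in endothelial-like cells; and the 3 most correlated genes per member.

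Cells had 200 to 7000 genes; no mitochondrial limit was set, and the study's 5% limit, counted over the mitochondrial genes other than ribosomal RNA, was an alternative. Clustering (Python 3.11.15, 2500 variable genes without the members and wider list, 19 components, 20 neighbours, leidenalg 0.10.2, resolution 0.5) gave classes named from marker lists; these were not the authors' names and can differ from them. Scrublet in scanpy 1.11.5 marked 1532 of 28530 cells (5.37%) as doublets, which were kept. UMIs were summed per library and class with at least 10 cells and tested with edgeR 4.0.16 (R 4.3.3; quasi-likelihood, TMM, filterByExpr, 1 mean per group), Benjamini-Hochberg over all genes; on simulated counts for endothelial-like cells of males (3121 genes) it recovered 27.66% of log2 changes of 1 and 88.54% of 2. The simulation gave all genes the same spread between mice and changed 94 genes by 1 and 96 by 2, so these rates need not hold for single members. DESeq2 1.42.0, no count filter, 300 genes, doublets removed, Leiden resolution 1, marker classes, all 16 tables, the shared library under either label and each library left out were alternatives. Floors of 3 counts cover counting error only. Correlations used 100000 permutations and genes with 200 UMIs.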

Additional observations from a re-analysis of the deposited data

Results flagged for a closer look

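Summed over all cells, Slc7a5 lay at 88.2 CPM in THY-Tau22 female replicate 1, far from the other 4 THY-Tau22 females at 20.3 to 36.9 CPM. The gap was 0.755 of the group's range, where 0.710 is the limit for 5 samples. Chance gives such a gap in about 1 of 20 groups, and 22 groups were examined. In endothelial-like cells of the same library Slc7a5 was at 344.5 CPM, the highest of the 14 libraries, against 75.7 to 205.5 in the other THY-Tau22 females. Without this library the female log2 fold change there was -0.22 in place of 0.30.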

How the results depend on the processing

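No member was called in any of the 324 recomputed counts, and 253 of 273 recomputed log2 fold changes of members in endothelial-like cells kept their direction when no library was left out. Those that turned were near 0 and not called, and the cause was not tested. In males, Tjp1 turned to -0.0038 with DESeq2, -0.055 with no count filter, -0.092 with at least 300 genes and -0.027 with marker classes. Abcb1a turned to 0.016 with the shared library as a THY-Tau22 male and 0.066 with the mitochondrial share as a covariate, an alternative chosen after seeing the data. Slc7a5 turned to -0.023 with DESeq2, -0.070 with no count filter, -0.033 with at least 300 genes, -0.0017 without doublets, -0.13 with marker classes, -0.030 with all 16 tables, -0.094 with the shared library as a WT male and -0.0015 with only the libraries titled MB21. The 2 libraries titled MB22 were from females, so the male mice were the same in that setting. The labels do not say what these titles mean. In females, MB21 libraries alone gave Abcb1a 0.054, Abcg2 -0.050 and Slco1c1 0.091, marker classes gave Abcg2 -0.0086, and Slco1c1 was 0.017 with no count filter and 0.011 with at least 300 genes.

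With 1 library left out at a time, Cldn5 in males lay between 0.48 and 0.73, and values that turned ranged in males from -0.075 to 0.11 (Tjp1), -0.11 to 0.064 (Abcb1a), -0.0095 to 0.18 (Slco1a4) and -0.26 to 0.24 (Slc7a5). In females they ranged from -0.45 to 0.061 (Cldn5), -0.019 to 0.38 (Tjp1), -0.25 to 0.20 (Slc2a1), -0.12 to 0.076 (Abcb1a), -0.073 to 0.34 (Abcg2), -0.10 to 0.080 (Slco1c1), -0.44 to 0.14 (Mfsd2a) and -0.22 to 0.63 (Slc7a5). The class gap of Ocln ranged from 0.36 to 0.68 and passed without WT male replicate 4 (adjusted exact permutation p = 0.0188); with marker classes it was 1.44 and passed (0.0127). Arterial differences ranged from -0.086 to 0.027 (Ocln), -0.24 to -0.17 (Tjp1), -0.13 to -0.10 (Abcb1a), -0.47 to -0.35 (Abcg2), -0.26 to -0.19 (Slco1a4) and -0.48 to -0.33 (Slc7a5), and that of Tjp1 was -0.19 and not called with at least 300 genes (adjusted exact permutation p = 0.0593). The female endothelial-like share differed by -3.49 to -1.80 points and, with at least 300 genes, by -2.66 (exact permutation p = 0.0357). The male one differed by -3.24 with the shared library as a WT male (exact permutation p = 0.0286), where the added mouse lets the test go below 0.10. With that library as a THY-Tau22 male, the exact permutation p was not under 0.05. Its table under that label had 14.7% endothelial-like cells, within the range of the WT males (13.8% to 15.4%). Which label is right is not known. The left-out, 300-gene and relabelled settings of the class, arterial and share results were added after seeing the data. No paired analysis was possible because replicate numbers follow accession order and pair no mice across groups. Depth limits Ocln, Mfsd2a and Slc7a5 most, with 238, 525 and 442 UMIs in endothelial-like cells.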
